A study of Mus musculus with 7 samples.

Results

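The primary cilium and intraflagellar transport genes are 36 genes that build, load or gate the primary cilium, the single antenna-like organelle on the surface of most embryonic cells. They were chosen by gene symbol, and all 36 were found among the 25461 genes of the expression table. RNA was sequenced from whole mouse embryos at embryonic day (E) 11.5 of strain B6C3F1, with the tail taken for genotyping. The 3 KO embryos (KOAC8-6, KOAC10-5 and KOAC10-8) lacked SLMAP3, a tail-anchored protein of the centrosome and internal membranes, and the 4 WT embryos (KOAC8-1, KOAC10-7, KOAC9-1 and KOAC10-2) did not. The KO is global: loxP sites flanked exon 3 of Slmap, a CMV-cre line made the deletion, cre was then bred out, and heterozygotes were crossed to each other. The deletion removes the SLMAP3 isoform and leaves the shorter SLMAP1 and SLMAP2 isoforms. Values are per gene, so which Slmap transcripts remained in the KO was not tested.

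Building a cilium depends on intraflagellar transport (IFT), in which trains of IFT-B and IFT-A proteins carry cargo along the axoneme. Kinesin-2 moves the trains to the tip and dynein-2 brings them back, while the BBSome is an adaptor that takes membrane proteins out of the cilium. ARF-like (ARL) GTPases direct lipid-modified and membrane cargo, and the transition zone at the base acts as the gate. In the mouse embryo, loss of many of these genes disturbs Hedgehog signalling and with it the patterning of the neural tube and limbs.

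Values are FPKM, fragments normalised to transcript length and to the depth of the library, so levels can be compared between genes. KO and WT were compared gene by gene with limma on log2(FPKM + 1), over the 16095 genes whose mean over the 7 embryos reached 1 FPKM, and p-values were adjusted by Benjamini-Hochberg over all of them. A log2 fold change is KO against WT on that scale, on which differences of weakly expressed genes come out too small. The FPKM columns hold no read counts. Depth relative to the mean of the embryos, read from the commonest ratio of very low values of the same gene between embryos, ran from 0.811 in WT KOAC10-2 to 1.21 in WT KOAC9-1. Slmap itself was 19.6, 16.0 and 16.6 FPKM in the KO embryos and 31.2, 23.9, 29.1 and 22.8 FPKM in the WT embryos. Every KO embryo was thus below every WT embryo, in the direction of the labels (exact permutation test over the 35 splits, two-sided p = 0.0286, the smallest it can give). In the fit over all genes by which the members are judged below, Slmap itself had an adjusted p above 0.05, with a log2 fold change of -0.59 (limma adjusted p = 0.278, and between 0.0905 and 0.552 in the alternative analyses).

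The cilium genes had small fold changes between KO and WT embryos, and no difference passed the test. All 36 members passed the expression filter, and none had an adjusted p under 0.05 (limma, smallest adjusted p = 0.347, for Arl3), where 0.0373% of all genes tested did. The log2 fold changes ran from -0.22 for Ift46 to 0.26 for Ift74, and 22 of the 36 (61.1%) lay within 0.1 of zero, against 52.8% of all genes tested. The median was 0.05, against 0.01 for all genes tested, and 24 members (66.7%) were positive and 12 negative, where 53.1% of all genes tested were positive. The 95% confidence intervals of the members together spanned -0.48 (Ift80) to 0.53 (Ift74), and no interval reached further than these. At an unadjusted p under 0.05, 3 members were higher in KO (8.33%, against 5.27% of all genes) and 0 were lower (against 6.19% of all genes). With the KOAC number of the embryo names as a block, or without WT KOAC9-1, the higher count was 1, which was Arl3 in both, and the share of all genes was 4.04% and 3.61%. KOAC9-1 is the only embryo of its KOAC number, so both fits give the same fold changes and are not separate checks. Because whole embryos were sequenced, a different number of ciliated cells and a different amount of RNA per cell cannot be told apart in any of these values.

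**Figure D1:**
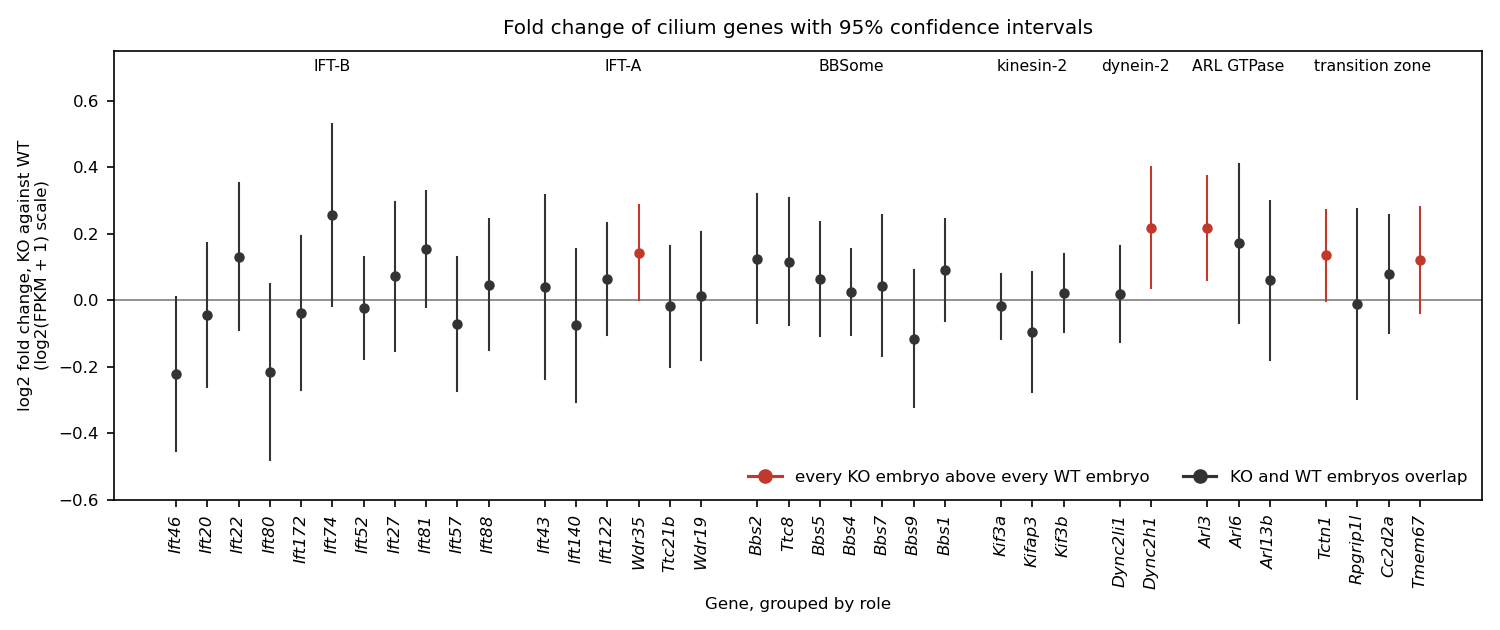
Log2 fold change of each of the 36 genes, KO against WT on the log2(FPKM + 1) scale (points), with 95% confidence intervals from limma (lines), grouped by role on the horizontal axis. All points lie between -0.22 and 0.26, and the 5 genes in red are those whose KO embryos were all above the WT embryos.

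Mean levels covered a wide range, from 5.72 FPKM for the BBSome subunit gene Bbs1 to 88.1 FPKM for Arl3, with a median of 14.8 FPKM. Ift46 (84.8 FPKM) and Ift20 (58.5 FPKM) followed Arl3, and Dync2h1 (6.16 FPKM) and Tmem67 (6.41 FPKM) stood with Bbs1 at the lower end. The order was only loosely fixed: in 4 of the 35 pairs of neighbours in that order did the ranges over the 7 embryos stay apart (Ift46 above Ift20, Ift20 above Ift22, Ift27 above Bbs2, and Kif3b above Ttc21b). By role, the median level was 32.0 FPKM for the 11 IFT-B genes and 30.7 FPKM for the 3 kinesin-2 genes. It was 16.5 FPKM for the 3 ARL GTPase genes, 11.3 FPKM for the 6 IFT-A genes, 11.1 FPKM for the 2 dynein-2 genes, 10.54 FPKM for the 7 BBSome genes and 7.05 FPKM for the 4 transition zone genes. Genes of one complex were therefore not at one level, since within IFT-A alone means ran from 6.42 FPKM (Wdr19) to 35.5 FPKM (Ift43).

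**Figure D2:**
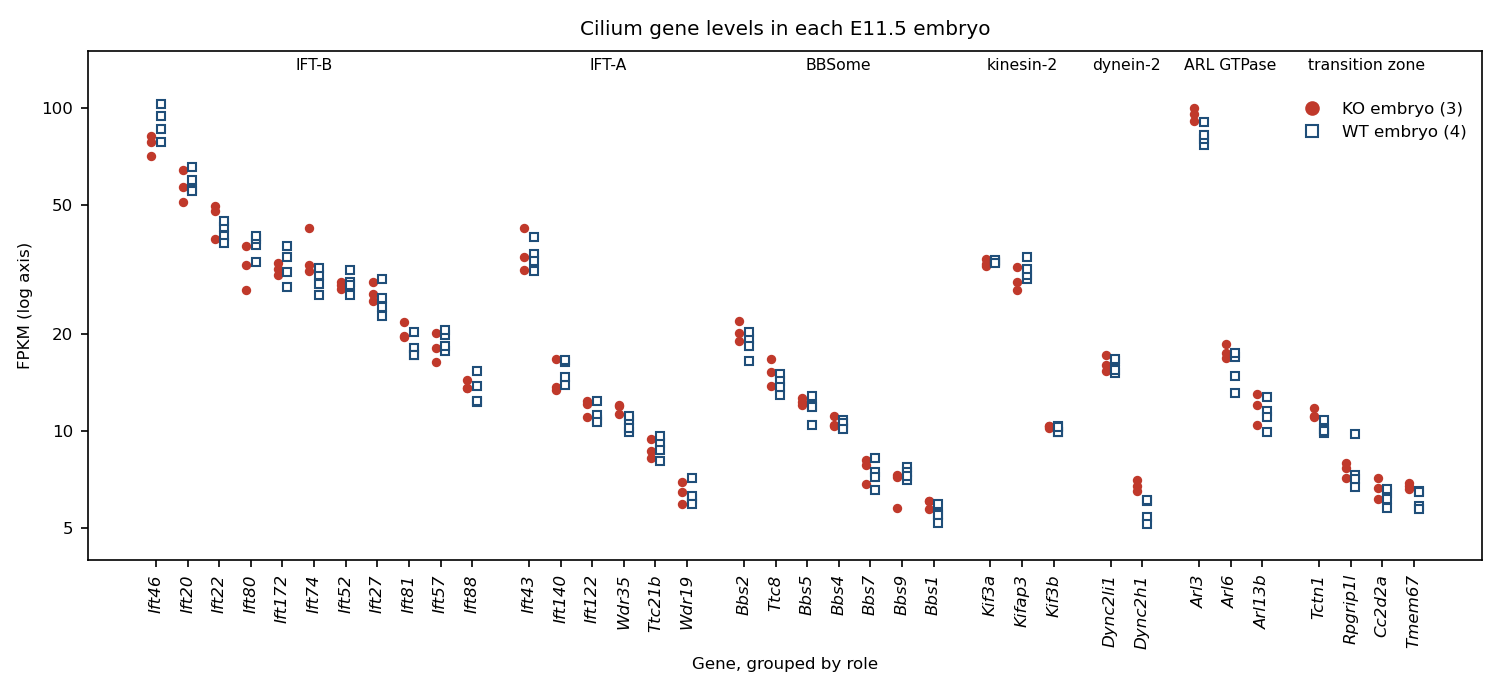
FPKM (log axis) of the 36 genes in each of the 3 KO embryos (filled circles) and 4 WT embryos (open squares), grouped by role and ordered by mean level. Arl3 and Ift46 lie highest and Bbs1, Dync2h1 and Tmem67 lowest, and the spread within a gene is small beside the differences between genes.

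The motors differed in how steady they were. Kif3a and Kif3b encode the motor subunits that pair to form kinesin-2. Kif3a was 32.3, 34.1 and 32.8 FPKM in KO and 33.4, 33.6, 33.9 and 33.2 FPKM in WT embryos. Kif3b was 10.22, 10.34 and 10.36 FPKM in KO and 10.35, 9.96, 9.92 and 10.32 FPKM in WT embryos. Both genes overlapped between the genotypes, with log2 fold changes of -0.02 (95% confidence interval -0.12 to 0.08) and 0.02 (-0.09 to 0.14). Their coefficients of variation over the 7 embryos were 1.86% and 1.88%, against a median of 10.4% for all genes tested. Just 20 and 21 of the 16095 genes tested were steadier than Kif3a and Kif3b, a pair singled out here after the values were seen. The ratio of Kif3a to Kif3b accordingly stayed between 3.16 and 3.41 in all 7 embryos. Kifap3, which encodes the cargo-binding subunit of the same motor, varied more, from 27.3 to 34.7 FPKM (log2 fold change -0.10).

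The heavy chain of the return motor dynein-2 was one of the genes with no overlap. Dync2h1 (ENSMUSG00000047193, chromosome 9 of GRCm38, 6928503 to 7184446, minus strand) was 7.07, 6.74 and 6.52 FPKM in KO embryos and 6.09, 5.43, 5.14 and 6.12 FPKM in WT embryos. All KO embryos were above all WT embryos, with means of 6.78 ± 0.277 (SD, n = 3) and 5.69 ± 0.489 FPKM (SD, n = 4) and a log2 fold change of 0.22 (standard error 0.08, limma adjusted p = 0.384). Dync2li1, the light intermediate chain that partners it, ran from 15.2 to 17.2 FPKM with overlapping genotypes (log2 fold change 0.02). The ratio of Dync2li1 to Dync2h1 was 2.17, 2.37 and 2.64 in KO and 2.49, 3.03, 3.26 and 2.53 in WT embryos. That ratio overlapped between genotypes, so the chains of dynein-2 were not shown to have shifted against each other.

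The IFT-B genes, which make the trains that carry tubulin and other cargo outwards, held the largest fold changes in both directions and no gene whose genotypes were apart. Ift74 (ENSMUSG00000028576, chromosome 4, 94614491 to 94693229, plus strand) was 32.7, 31.3 and 42.6 FPKM in KO embryos and 26.4, 30.5, 32.1 and 28.5 FPKM in WT embryos. The high mean in KO came largely from KOAC10-8, and the genotypes overlapped (log2 fold change 0.26, standard error 0.12, limma adjusted p = 0.462). Ift46 (ENSMUSG00000002031, chromosome 9, 44767908 to 44793447, plus strand) was 71.2, 78.7 and 81.8 FPKM in KO embryos and 78.6, 94.7, 103.0 and 85.9 FPKM in WT embryos. WT KOAC8-1 lay among the KO embryos, and the log2 fold change was -0.22 (standard error 0.10, limma adjusted p = 0.454). Ift80 had nearly the same value (-0.22), with its lowest embryo, KOAC10-8, at 27.2 FPKM. Without KOAC10-8 the log2 fold change was -0.099 for Ift80 and 0.12 for Ift74, and without KO KOAC8-6 it was -0.32 for Ift80. Ift20, which also acts at the Golgi, was 57.1, 51.2 and 64.2 FPKM in KO and 59.7, 56.2, 65.8 and 55.2 FPKM in WT embryos, with KOAC10-5 below the WT range and the other KO embryos inside it. The other IFT-B genes had log2 fold changes of 0.15 (Ift81), 0.13 (Ift22), 0.07 (Ift27), 0.05 (Ift88), -0.02 (Ift52), -0.04 (Ift172) and -0.07 (Ift57). Ift81, whose product pairs with that of Ift74, stood at 0.513 to 0.682 of the Ift74 level, and KO and WT embryos overlapped in that ratio. The ratio of Ift46 to Ift88, both of the IFT-B core, was 5.23, 5.78 and 5.67 in KO and 6.38, 6.18, 7.46 and 6.95 in WT embryos. KO and WT were apart in this ratio, which was chosen after the fold changes were seen and was not tested. Among the ratios between partner genes that were worked out, KO and WT overlapped in all the others.

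Of the IFT-A genes, which serve the return journey and the entry of membrane receptors, Wdr35 had KO embryos apart from WT embryos. Wdr35 (ENSMUSG00000066643, chromosome 12, 8973892 to 9028847, plus strand) was 11.96, 12.00 and 11.3 FPKM in KO and 10.9, 11.1, 9.93 and 10.3 FPKM in WT embryos. Its lowest KO embryo exceeded its highest WT embryo by little, and the log2 fold change was 0.14 (standard error 0.06, limma adjusted p = 0.435). The other IFT-A genes lay closer to zero, at 0.06 (Ift122), 0.04 (Ift43), 0.01 (Wdr19), -0.02 (Ttc21b) and -0.08 (Ift140).

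No BBSome gene had its genotypes apart. Bbs1, the lowest of all members, was 5.76, 6.06 and 6.08 FPKM in KO and 5.54, 5.48, 5.20 and 5.96 FPKM in WT embryos, with WT KOAC10-2 inside the KO range (log2 fold change 0.09). Bbs2 and Ttc8 were at 0.12, Bbs5 at 0.06, Bbs7 at 0.04, Bbs4 at 0.02 and Bbs9 at -0.12, the last with KOAC10-8 lowest at 5.76 FPKM.

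Arl3 encodes a GTPase that releases lipid-modified proteins from their carriers inside the cilium. Arl3 (ENSMUSG00000025035, chromosome 19, 46531096 to 46573198, minus strand) was 91.4, 96.0 and 100.1 FPKM in KO embryos and 76.7, 80.0, 90.5 and 82.3 FPKM in WT embryos. The means were 95.9 ± 4.37 (SD, n = 3) and 82.3 ± 5.88 FPKM (SD, n = 4), and the gap between the lowest KO and the highest WT embryo (KOAC8-6 and KOAC9-1) was narrow. Its log2 fold change of 0.22 (standard error 0.07, limma adjusted p = 0.347) stayed between 0.19 and 0.26 in the 16 alternative analyses. The adjusted p ranged from 0.273 to 0.634 in them. Arl6, which recruits the BBSome to membranes, had a log2 fold change of 0.17 and Arl13b, which activates ARL3, one of 0.06. Both overlapped between the genotypes, Arl6 with its lowest value (13.1 FPKM) in WT KOAC9-1.

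At the transition zone, Tmem67 and Tctn1 were higher in every KO embryo. Tmem67 (ENSMUSG00000049488, chromosome 4, 12039355 to 12090020, minus strand), which encodes the membrane protein meckelin, was 6.61, 6.77 and 6.92 FPKM in KO and 5.86, 6.53, 5.73 and 6.48 FPKM in WT embryos. The lowest KO embryo exceeded WT KOAC10-7 by very little (log2 fold change 0.12, standard error 0.07, limma adjusted p = 0.532). Tctn1 (ENSMUSG00000038593, chromosome 5, 122237848 to 122264460, minus strand), which encodes the secreted protein tectonic, was 11.0, 11.1 and 11.8 FPKM in KO and 9.89, 10.18, 9.98 and 10.85 FPKM in WT embryos. The KO embryos were again just above the highest WT embryo (log2 fold change 0.14, standard error 0.06, limma adjusted p = 0.438). The TruSeq kit does not mark strand, and 25.5% of the exonic bases of Tctn1 are shared with other genes (19.0% with Hvcn1 on the opposite strand), so reads there cannot be told apart. Hvcn1 was 4.59, 5.35 and 5.77 FPKM in KO and 4.72, 4.90, 4.39 and 5.36 FPKM in WT embryos, overlapping between the genotypes. Tmem67 shares 5.42% of its exonic bases with other genes (3.73% with Rbm12b2 on the other strand), where reads cannot be told apart either. Rbm12b2 was 13.5, 13.2 and 13.9 FPKM in KO and 12.3, 10.4, 10.9 and 10.995 FPKM in WT embryos, with every KO embryo above every WT embryo, as for Tmem67. Its part in the Tmem67 values was not tested. Cc2d2a and Rpgrip1l had log2 fold changes of 0.08 and -0.01, and Rpgrip1l was at 9.78 FPKM in WT KOAC10-7 against 6.73 to 7.97 FPKM in the other embryos.

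In all, 5 of the 36 members (13.9%) had every KO embryo above every WT embryo, against 5.61% of all genes tested, and 0 had every KO embryo below, against 5.98% of all genes tested. These were Dync2h1, Arl3, Wdr35, Tctn1 and Tmem67, which belong to 4 different roles. With the 7 embryos scaled to a common FPKM sum, the count was 3, where 5.01% of all genes had KO embryos above, and the genes were Arl3, Ift74 and Ift81, so only Arl3 was on both lists.

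**Figure D3:**
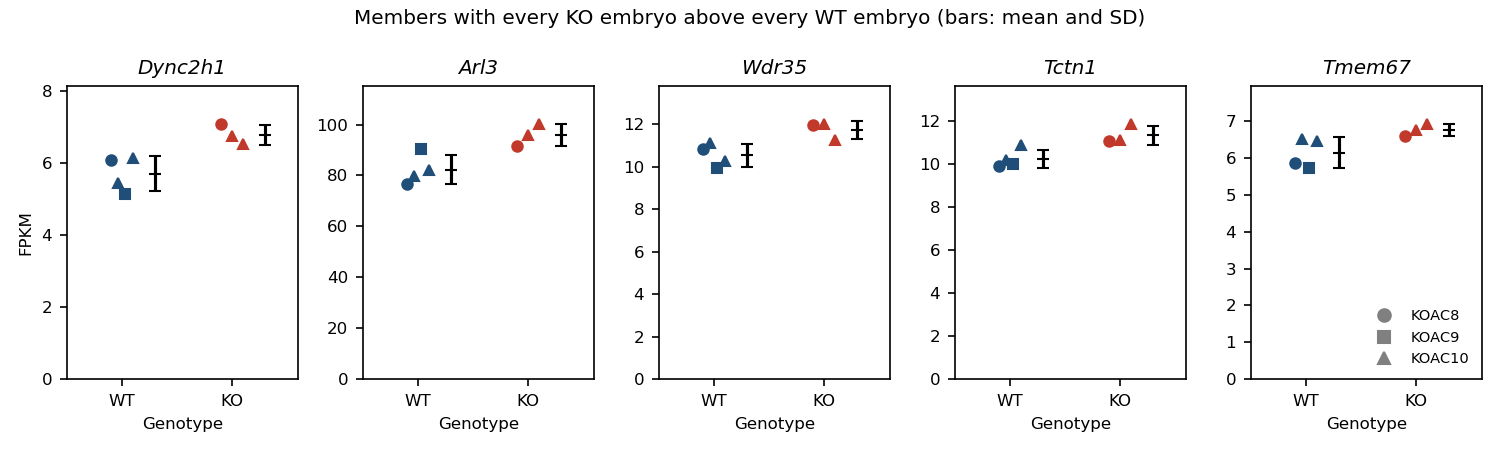
FPKM of Dync2h1, Arl3, Wdr35, Tctn1 and Tmem67 in each embryo, WT in blue and KO in red, with marker shapes for the KOAC number in the embryo name and bars for the mean and SD of each genotype. In each panel the lowest KO embryo lies above the highest WT embryo, by less than the SD of the WT embryos.

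Single embryos held many of the extreme values. KO KOAC10-8 was the highest of the 7 embryos for 13 members, and WT KOAC9-1 was the lowest for 11. KOAC10-8 was also the lowest for 4 members, among them Ift80 and Bbs9. Summed over the 36 members, expression was 785, 803 and 840 FPKM in KO and 767, 806, 821 and 788 FPKM in WT embryos, so the genotypes overlapped. KOAC10-8 also had the largest FPKM sum over all genes (861448, against 770063 to 813357 in the other embryos), and the part of this in its high cilium values was not tested.

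**Figure D4:**
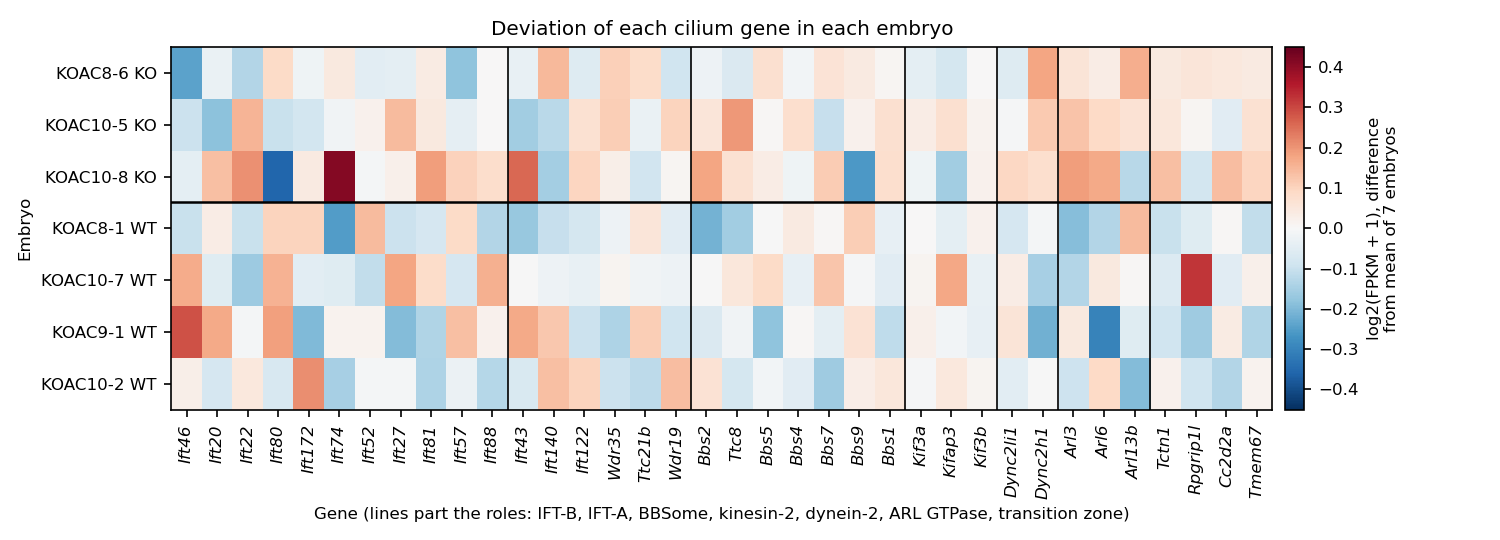
Difference of log2(FPKM + 1) from the mean of the 7 embryos, for each gene (columns, parted by role) in each embryo (rows, KO above the line). Positive values are red and negative values blue; Ift74 in KOAC10-8 and Rpgrip1l in WT KOAC10-7 are among the strongest, and the Kif3a and Kif3b columns are nearly white.

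The promoters of the members were searched for the X-box, the motif bound by RFX transcription factors, which switch on cilium genes. A promoter was taken as 250 bases before to 50 bases after the gene start in RefSeq (GRCm38.p6), with the start base counted as 1, and 31 members had one. Dync2li1, Ift122, Ift80, Ift81 and Tmem67 had none. An X-box was present in 3 of the 31 (9.68%), namely Ift57, Bbs1 and Tctn1, against 11.5% of 61 other cilium genes and 1.75% of all 27025 promoters. Its core GTTGCC, read on both strands and lying inside each X-box match, was present in 13 of the 31 (41.9%), against 34.4% of the other cilium genes and 14.1% of all promoters. The matches below are those of the members with an X-box and of Dync2h1 and Wdr35, which had KO embryos apart and a core. Capitals mark the match, and each sequence reads along the strand of the gene.
Ift57 X-box, chr16:49699199-49699228, plus strand: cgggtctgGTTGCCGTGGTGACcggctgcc
Ift57 X-box, chr16:49699226-49699254, plus strand: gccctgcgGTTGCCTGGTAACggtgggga
Bbs1 X-box, chr19:4906605-4906634, minus strand: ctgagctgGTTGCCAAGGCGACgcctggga
Tctn1 X-box, chr5:122264411-122264432, minus strand: ctgtgactGTTGCCCGGGCAAC
Dync2h1 core, chr9:7177009-7177034, minus strand: gcgacggagcttGGCAACtgctgagt
Wdr35 core, chr12:8974029-8974050, plus strand: tgggcggcggtgGTTGCCaggc
The Ift57 matches begin 87 and 60 bases before the start, and those of Bbs1, Tctn1, Dync2h1 and Wdr35 begin at bases 2, 37, 37 and 41. These starts are those of RefSeq, and for Dync2h1, Wdr35 and Ift57 they lie inside the gene as GENCODE M21 draws it, well inside for Dync2h1, so the Dync2h1 window is not upstream of the GENCODE start. Arl3, Ift74 and Ift46 had neither motif in this window. Of the members with an X-box, the log2 fold changes were -0.07 for Ift57, 0.09 for Bbs1 and 0.14 for Tctn1, each with a 95% confidence interval that included zero, and a relation between the motif and the fold change was not tested.

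Among the RFX genes themselves, Rfx4, which is expressed in the developing neural tube, was 14.2, 13.9 and 16.5 FPKM in KO and 11.3, 11.4, 10.798 and 12.2 FPKM in WT embryos. Every KO embryo was above every WT embryo, with a log2 fold change of 0.35 (standard error 0.08, limma adjusted p = 0.277). Rfx3 was at 0.20 with overlapping genotypes, and 5 of the 6 RFX genes were positive. The Hedgehog target genes Gli1, Ptch1 and Hhip, whose induction needs the cilium, had log2 fold changes of 0.28, 0.16 and 0.18. Each had overlapping genotypes, and their limma adjusted p-values were 0.472, 0.462 and 0.711.

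A list of 66 other cilium genes, of which 64 were tested, gave similar values. Of these, 0 had an adjusted p under 0.05, 4 (6.25%) were higher and 0 lower at an unadjusted p under 0.05, against 5.27% and 6.19% of all genes tested, and 6 (9.38%) had every KO embryo above every WT embryo, against 5.61%. Fold changes ran from -0.22 for Pkd1 to 0.29 for Cep290 on the log2 scale, with a median of 0.05. The 14 genes of the basal body and its appendages had a median of 0.11, from -0.11 (Ttbk2) to 0.25 (Sclt1), with 12 positive and 2 negative. This was the highest median of the roles in the list. Medians were negative for the inversin compartment (-0.09, 1 of 3 positive), dynein-2 (-0.06, 1 of 3) and the ciliary membrane (-0.01, 3 of 6). Of the 17 other transition zone genes, 0 had every KO embryo above. Of the 14 basal body genes, 4 had every KO embryo above, where 5.61% of all genes tested did and 53.1% were positive. Those named by the rule were Sclt1 of the distal appendages at 0.25, Cep97, a capping protein, at 0.23, 2700049A03Rik, the talpid3 gene, at 0.22, Odf2 of the subdistal appendages at 0.19 and Pcm1 of the centriolar satellites at 0.15. The IFT-B gene Ttc26 was at 0.15. The limma adjusted p-values of these 6 lay between 0.354 and 0.463. Sclt1 overlapped between the genotypes and the others did not. Of the 64 genes tested, 0 had every KO embryo below every WT embryo, against 5.98% of all genes tested. Ttc30a2 and Kif17, below 1 FPKM on average, were not tested. Ttc30a2 had every KO embryo below, at 0.381, 0.330 and 0.415 FPKM in KO and 0.432, 0.704, 0.551 and 0.517 FPKM in WT embryos.

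Motile cilium markers varied widely in level. Ccdc40, Cfap43 and Ccdc39 had means of 11.5, 8.40 and 5.197 FPKM, within or near the range of the members. Of 16 marker genes, 7 were under 1 FPKM in every embryo, and 7 were tested, with 0 adjusted p under 0.05. Of these 7, 6 were positive and 1 negative, with a median log2 fold change of 0.09. Tekt1, which encodes an axonemal tektin, was the 1 of the 7 with every KO embryo above every WT embryo, against 5.61% of all genes tested. Its log2 fold change was 0.16 (limma adjusted p = 0.435). Foxj1, the main regulator of motile cilia and the negative one (-0.20), was 2.27, 3.35 and 2.95 FPKM in KO and 3.11, 3.28, 3.49 and 3.76 FPKM in WT embryos. Ccno, below 1 FPKM on average and not tested, had every KO embryo below every WT embryo. It was 0.726, 0.745 and 0.760 FPKM in KO and 0.806, 1.46, 0.899 and 1.06 FPKM in WT embryos. The 16 markers summed to 36.6, 37.1 and 41.6 FPKM in KO and 39.5, 34.6, 35.6 and 36.6 FPKM in WT embryos, with Ccdc40 the most abundant, and none was at 0 in all embryos.

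Markers of neural progenitors, skeletal muscle, blood and mesenchyme had larger median fold changes than the cilium genes, and neuron markers ranged from -0.14 to 0.07 on the log2 scale. Of all genes tested, 53.1% were positive, 5.61% had every KO embryo above every WT embryo and 5.98% had every KO embryo below. Of 7 neural progenitor markers, 6 were positive and 4 had every KO embryo above every WT embryo, with a median log2 fold change of 0.44. Their sum was 1387, 1459 and 1598 FPKM in KO and 1218, 1257, 1366 and 1406 FPKM in WT embryos, with Vim the most abundant. Of 9 skeletal muscle markers tested out of 10, all 9 were negative, with a median of -0.77. Of the 9, 8 had every KO embryo below, against 5.98% of all genes tested. The 10 muscle markers summed to 116, 114 and 62.7 FPKM in KO and 211, 205, 274 and 176 FPKM in WT embryos, with Mylpf the most abundant. Median log2 fold changes were -0.60 for 10 erythroid markers (Hbb-y the most abundant) and -0.33 for 6 mesenchyme markers (Col3a1). Of these, 5 and 3 had every KO embryo below every WT embryo, against 5.98% of all genes tested. Erythroid markers summed to 19982, 16628 and 21353 FPKM in KO and 30023, 24384, 31771 and 31597 FPKM in WT embryos. Mesenchyme markers summed to 701, 794 and 605 FPKM in KO and 849.7, 861.3, 931.6 and 823.9 FPKM in WT embryos. The 8 neuron markers had a median of -0.10 and 0 without overlap, and in none of these 5 lists did a gene have an adjusted p under 0.05 (limma). No marker of these lists was at 0 in all embryos. KO KOAC10-8 had the highest neural progenitor sum and the lowest muscle and mesenchyme sums of the 7 embryos, beside its highest values for 13 cilium genes. The part of tissue make-up in the cilium gene values was not tested.

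The liver marker Afp was 255, 5.18 and 308 FPKM in KO and 376, 1.30, 278 and 2.49 FPKM in WT embryos, so KOAC10-5, KOAC10-7 and KOAC10-2 stood apart from the others in both genotypes. Of 10 fetal liver markers, 7 were positive and 3 negative, and 0 had an adjusted p under 0.05. Ttr did not follow Afp, and was the 1 with every KO embryo below, against 5.98% of all genes tested. It was 14.4, 15.3 and 15.1 FPKM in KO and 46.4, 32.3, 53.1 and 35.3 FPKM in WT embryos (log2 fold change -1.40, limma adjusted p = 0.0891). Without these 3 embryos, the median log2 fold change of the members was 0.09, and Arl6 was the 1 member higher at an unadjusted p under 0.05, against 4.61% of all genes in that fit. Arl3 then had a log2 fold change of 0.20, Dync2h1 0.24, Wdr35 0.15, Tctn1 0.19 and Tmem67 0.19. The KOAC number, whose meaning the labels do not give, is shared by 1 KO and 1 WT embryo for KOAC8 and by 2 KO and 2 WT embryos for KOAC10, and KOAC9 has 1 WT embryo only.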

How the data were processed

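RNA from 3 KO and 4 WT embryos was sequenced after TruSeq RNA v2 library preparation, with no pooling. The labels name each embryo, and the groups follow from them. The values used are FPKM per gene, as the authors deposited them. The submitters' processing notes name Salmon, DESeq2 and MultiQC and the build GRCm38, and versions are not given in the sources used here. Their median-ratio size factors are equal in all 7 embryos, so they were already scaled in that way. The 5 columns of the authors' own comparison (mean, fold change, its error, p and adjusted p) were not used.

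The members and gene lists were chosen with earlier results of these data known. limma 3.58.1 (R 4.3.3; lmFit and eBayes with trend) was run on log2(FPKM + 1) for the 16095 genes whose mean reached 1 FPKM, with Benjamini-Hochberg adjustment, and tested on simulated data. Values per embryo were given for members with an unadjusted p under 0.05 or KO and WT ranges apart, for the 3 highest and 3 lowest means, and for the largest fold change in each direction. Other cilium genes were named, up to 6, if they met either of the first conditions. Bbs1 and Ift57 promoters were added for their matches, and Kif3a, Kif3b and the ratios after values were seen. Gene positions and overlaps come from GENCODE M21 (25447 of 25461 identifiers found) and promoters from RefSeq. The alternatives were a pseudocount of 0.1, no filter, a mean of at least 5 FPKM, median-ratio factors, a common FPKM sum, the KOAC number as a block, log2 Afp as a covariate, robust eBayes, each embryo left out, and, added after seeing the data, the 3 embryos under 10 FPKM of Afp left out. One gene of the Hedgehog target list is not reported here.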

Additional observations from a re-analysis of the deposited data

Results flagged for a closer look

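Among the 4 WT embryos, the highest or lowest value was looked for in 103 genes (the 36 members, the 66 other cilium genes and Slmap) by the gap to its nearest neighbour over the whole range. This share passed Dixon's 95% critical value for 4 samples in 5 genes, where chance alone gives about 5.15 (1 in 20). None was among the 36 members. In KOAC9-1, the share was 0.873 for Cep83 of the distal appendages (24.1 FPKM, low), 0.877 for the kinase gene Ttbk2 (6.69 FPKM, low), 0.920 for the GTPase gene Rab8a (71.1 FPKM, high) and 0.935 for the ciliary adenylyl cyclase gene Adcy3 (6.75 FPKM, low). In KOAC8-1 it was 0.893 for the phosphatase gene Inpp5e (17.1 FPKM, high).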

How the results depend on the processing

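No member had an adjusted p under 0.05 in any of the 16 alternatives, and 25 of the 36 kept the sign of their fold change in all of them. The count of all genes with an adjusted p under 0.05 was 6, 10 with log2 Afp as a covariate, 17 without the 3 embryos under 10 FPKM of Afp, and 7 to 12 with 1 embryo left out (12 without WT KOAC8-1). Members higher at an unadjusted p under 0.05 numbered 1 with the KOAC block, against 4.04% of all genes. They numbered 1 without the embryos under 10 FPKM of Afp (4.61% of all genes) and 1 to 3 with 1 embryo left out (3.31% to 7.81%). Members lower numbered 1 with a common sum, 1 with the block (Ift46 in both) and 0 to 1 with 1 embryo left out. The share of all genes lower was not worked out for these fits. With a common sum, 1551 of 16096 genes had an unadjusted p under 0.05 in either direction, and 4.34% of all genes were higher. With the block these were 1398 of 16095 genes and 4.04%. The counts of members lower are therefore not read as a result about the members. Members with all KO embryos above numbered 3 with a common sum, against 5.01% of all genes. With 1 embryo left out they numbered 5 to 8 (8 without KO KOAC8-6), and those below 0 to 2. Ranges of fewer embryos part more easily for any gene, and the share of all genes is not given for these fits. The counts with 1 embryo left out are therefore not read as a change. The median of the members was 0.089 without the embryos under 10 FPKM of Afp and 0.028 to 0.072 with 1 embryo left out (0.072 without WT KOAC10-7). Signs reversed for Ift20 (0.0068), Ttc21b (0.017) and Wdr19 (-0.015) with the block, for Rpgrip1l (0.025) with Afp as a covariate, and for Rpgrip1l (0.093), Ift172 (0.058), Bbs4 (-0.039) and Arl13b (-0.024) without the embryos under 10 FPKM of Afp. With 1 embryo left out, log2 fold changes ran from -0.13 to 0.035 for Ift20, -0.063 to 0.021 for Ift52, -0.11 to 0.026 for Ift172, -0.077 to 0.13 for Ift43, -0.065 to 0.020 for Ttc21b, -0.034 to 0.062 for Wdr19, -0.0056 to 0.042 for Bbs4, -0.0040 to 0.11 for Bbs7, -0.024 to 0.052 for Dync2li1, -0.0044 to 0.14 for Arl13b and -0.065 to 0.095 for Rpgrip1l. The causes were not tested. The KOAC block was the only blocked analysis, since the labels give no replicate numbers and do not say what the KOAC number marks. Its fold changes are those without WT KOAC9-1, the only embryo of KOAC9, so its sign reversals are those of that fit. Read counts are not in the columns used, so depth per gene is unknown, and 7 embryos leave changes within the intervals given undetected.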
